A study of Xenopus laevis with 40 samples.

Results

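Notch signalling passes between touching cells: a Delta or Jagged ligand on one cell binds a Notch receptor on its neighbour, the receptor is cut, and its intracellular domain enters the nucleus and acts with the DNA-binding protein Su(H) (RBPJ). The E3 ubiquitin ligase Mind bomb 1 (mib1) marks ligands for uptake in the sending cell, a step that ligand activity needs. In the embryonic epidermis of Xenopus, Delta-Notch signalling between cells of the inner layer sets how many become multiciliated cells, ionocytes or other specialised cells.

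Described here are the genes dll1 and dlc (Delta ligands), jag1 and jag2 (Jagged ligands), notch2 and notch3 (receptors) and mib1. They were chosen by symbol in the deposited symbol table, with every copy present; notch1 was left out because its intracellular domain was injected. Xenopus laevis has an L and an S copy of many genes, from its allotetraploid genome, and the rule found 14 copies of 51017 gene IDs. The IDs were gene41082 (dll1.L), gene39168 (dll1.S), gene17405 (dlc.L), gene38862 (dlc.S), gene11009 (jag1.L), gene2149 (jag1.S), gene442 (jag2.L), gene1419 (jag2.S), gene13722 (notch2.L), gene11577 (notch2.S), gene3432 (notch3.L), gene46368 (notch3.S), gene3201 (mib1.L) and gene12236 (mib1.S). All 14 passed the filter on low counts and were tested. Reads that L and S copies or related receptors share could be split between them, so the values of single copies are uncertain to that extent.

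RNA was sequenced in bulk from animal caps, tissue cut from the animal pole at stage 8 that forms mucociliary epidermis in culture. Wild-type embryos were given nicd mRNA (the Notch intracellular domain, 120 ng/ul), suh-dbm with dnmcidas mRNA (100 ng/ul each), suh-dbm mRNA alone (100 ng/ul) or foxa1MO (a foxa1 morpholino, 3 pmol), in 4 injections at the 4-cell stage, or stayed uninjected. Suh-dbm is a DNA-binding mutant of Su(H) used to block Notch signalling, and dnmcidas is a dominant-negative form of multicilin, the inducer of multiciliated cells. Explants of the 5 treatments were sampled at Nieuwkoop and Faber stages labelled st10.5, st16, st25 and st32. Each group had 2 libraries, from 2 experiments that each used another female and fertilization. The controls carried no injection, so an effect of injection itself cannot be told apart from that of the injected molecule.

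The 40 libraries held 20.2 M to 99.4 M counts each, where M stands for mega (median 36.3 M). The injected sequences showed in their libraries: at st10.5 notch1.S stood at 18802 and 9964 CPM (counts per M counts of the library) in nicd libraries, against 135 and 142 CPM in controls. It was still at 94.9 and 379 CPM in nicd libraries at st32, against 11.8 and 11.4 CPM in controls. At st10.5 rbpj.S, which reads suh-dbm, had 37707 and 41065 CPM with suh-dbm, against 16.2 and 11.1 CPM in controls. With suh-dbm it fell to 1028 and 2210 CPM at st16, 35.7 and 366 CPM at st25 and 6.66 and 128 CPM at st32. Controls had 5.02 and 5.74, 6.05 and 3.65, and 3.80 and 4.90 CPM at these stages. All 9 copies of an epidermal marker list were detected. In bulk RNA, fewer cells of a type and less RNA per cell cannot be told apart.

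In uninjected caps the ligands and receptors followed different courses between st10.5 and st32. From st10.5 to st16, jag1 and mib1 fell and notch2 and jag2.S rose; from st16 to st25, dll1.L, dlc.L and notch3.L fell and notch2.S, jag1.S and jag2.L rose. The edgeR quasi-likelihood test, with Benjamini-Hochberg adjustment over all 31648 genes tested, called a gene at an adjusted p under 0.05. It called 7 of 14 copies at st16 against st10.5, where 44.8% of all genes were called. It called 6 at st25 against st16 (21.9% of all genes) and 0 at st32 against st25 (1.44% of all genes). In that last step 2 copies had an unadjusted edgeR p under 0.05, against 4478 of all 31648 genes. There DESeq2 called 1 copy (dlc.L), where it called 1596 of 24625 genes. EdgeR with the replicate block called 1 (jag1.S), where it called 1063 of 31648 genes.

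**Figure D1:**
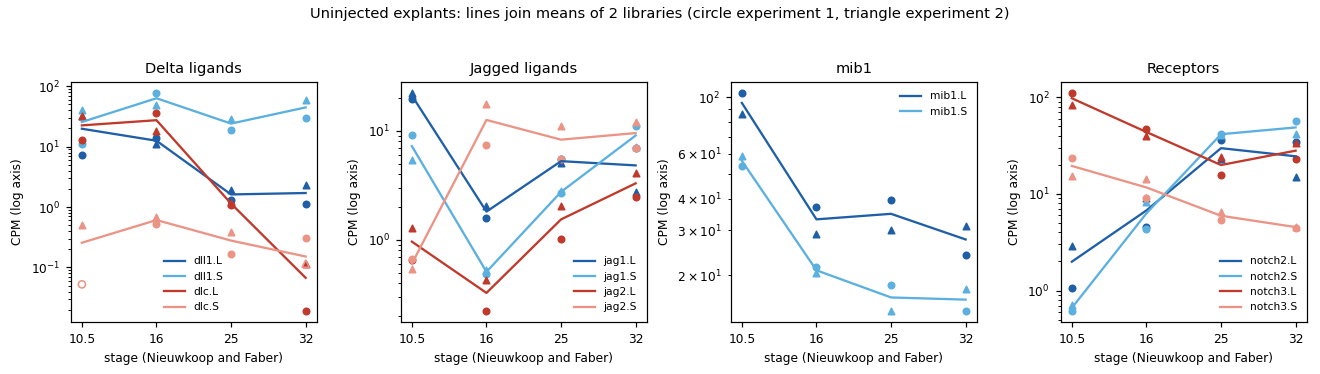
Level (CPM, log axis) of each copy in uninjected explants by Nieuwkoop and Faber stage; points are libraries, lines join means of the 2 experiments, and open points are counts of 0 drawn at the value of 3 counts. The lines of dll1.L and dlc.L drop after st16 while notch2.L and notch2.S climb; CPM is not scaled for gene length, so heights of different genes cannot be compared.

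The Delta ligands dlc.L and dll1.L stood higher at the first stages than later. In controls dlc.L had 13.1 and 31.9 CPM at st10.5, 36.5 and 18.4 CPM at st16, 1.10 and 1.19 CPM at st25 and 0.019 and 0.116 CPM at st32. Its fall at st25 against st16 had a log2 fold change of -4.71 ± 1.02 (SE; edgeR adjusted p 0.00158). At st32 it counted 4 reads in the libraries of the group together, against 123 at st25, a ratio of 0.0450 with a 95% exact interval of counting error from 0.0121 to 0.118. That step was not called (edgeR adjusted p 0.115).

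For dll1.L the control libraries had 7.34 and 32.2 CPM at st10.5, 13.9 and 11.1 CPM at st16, 1.30 and 1.94 CPM at st25 and 1.14 and 2.28 CPM at st32. The early and late libraries did not overlap, and the log2 fold change at st25 against st16 was -3.06 ± 0.88 (SE; edgeR adjusted p 0.0134). That call was kept in 1 of 4 fits that left out 1 library, with an adjusted p of up to 0.118 without the st25 library of experiment 1. The S copy, dll1.S, had 78.2 and 48.4 CPM at st16, 19.0 and 29.2 CPM at st25 and 30.3 and 59.0 CPM at st32, and no step of it was called; whether the copies differed was not tested. With the replicate block (the experiment as a term of the fit), its step at st16 against st10.5, where it had 11.1 and 40.1 CPM at st10.5, was called (log2 fold change 2.03 ± 0.66, SE; edgeR adjusted p 0.0126).

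The Jagged ligand jag1 fell at st16. In controls jag1.L had 19.7 and 22.3 CPM at st10.5, 1.58 and 2.04 CPM at st16, 5.50 and 5.02 CPM at st25 and 6.87 and 2.74 CPM at st32. The S copy had 9.11 and 5.33, 0.483 and 0.532, 2.69 and 2.81, and 11.0 and 7.03 CPM at the same stages. The fall at st16 against st10.5 was called for both copies (log2 fold changes -3.16 ± 0.60 and -3.45 ± 0.63, SE; edgeR adjusted p 0.000135 and 9.23e-05) and was kept in each of the 4 fits that left out 1 library. The return at st25 was called for jag1.S (2.34 ± 0.61, SE; edgeR adjusted p 0.00701; 0.0765 without the st16 library of experiment 1). In the fit with the block, the step at st25 was called for jag1.L (1.44 ± 0.53, SE; edgeR adjusted p 0.0464), and that at st32 for jag1.S (1.59 ± 0.38, SE; edgeR adjusted p 0.0236).

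For jag2, the S copy rose at st16 and the L copy at st25. In controls jag2.S had 0.666 and 0.538 CPM at st10.5 and 7.40 and 17.7 CPM at st16, and the libraries of st25 and st32 lay between 5.56 and 12.1 CPM. Its rise at st16 was the largest of the 14 copies in any control step (log2 fold change 4.71 ± 0.83, SE; edgeR adjusted p 5.57e-05). In the same libraries jag2.L had 0.221 and 0.429 CPM at st16, 1.02 and 2.05 CPM at st25 and 2.49 and 4.09 CPM at st32. The step at st25 was called (2.16 ± 0.62, SE; edgeR adjusted p 0.0134), but not without the st16 library of experiment 1 (adjusted p 0.170) or the st25 library of experiment 2 (adjusted p 0.140).

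The receptors moved in opposite directions. In controls notch2.S had 0.613 and 0.709 CPM at st10.5, 4.30 and 8.30 CPM at st16, 42.0 and 40.9 CPM at st25 and 56.2 and 41.3 CPM at st32. Both steps up to st25 were called (log2 fold changes 3.60 ± 0.48 and 2.66 ± 0.44, SE; edgeR adjusted p 1.92e-06 and 0.000133). Its L copy had 1.07 and 2.91, 4.51 and 8.98, 36.3 and 23.3, and 34.1 and 14.9 CPM at the same stages. The first step of notch2.L was called (2.13 ± 0.79, SE; edgeR adjusted p 0.0312), but not without the st10.5 library of experiment 1 (adjusted p 0.219) or the st16 library of experiment 2 (adjusted p 0.162). The second step was called with the replicate block (2.17 ± 0.75, SE; edgeR adjusted p 0.0322, against 0.0544 without it) and by DESeq2 (adjusted p 0.0181).

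Against this, notch3.L had 112 and 83.7 CPM at st10.5, 47.3 and 40.1 CPM at st16, 15.5 and 24.3 CPM at st25 and 22.8 and 33.3 CPM at st32. It fell at st25 against st16 (log2 fold change -1.24 ± 0.35, SE; edgeR adjusted p 0.0133), a call lost without the experiment 1 library of st16 (adjusted p 0.137) or of st25 (adjusted p 0.157). Its S copy had 23.6 and 15.4, 9.05 and 14.3, 5.36 and 6.53, and 4.48 and 4.59 CPM, with no step called. Fitting the block called notch3.S at st25 against st16 (-1.06 ± 0.37, SE; edgeR adjusted p 0.0327).

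The ligase mib1 had its highest control levels at st10.5, at 104 and 86.0 CPM for mib1.L and 54.0 and 58.8 CPM for mib1.S. At st16 mib1.L had 37.2 and 29.2 CPM and mib1.S 21.5 and 20.4 CPM, log2 fold changes of -1.13 ± 0.30 and -1.04 ± 0.30 (SE; edgeR adjusted p 0.00331 and 0.00699). Without the st16 library of experiment 2 these adjusted p were 0.0656 and 0.0685. The last copy, dlc.S, counted at most 53 reads in any library and 0 in 6 of 40 libraries (34 had a count), and no result rests on it.

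With nicd, the Delta ligand dlc.L was lower at st10.5, st16 and st25 and both dll1 copies at st16. At st10.5 DESeq2 called both dll1 copies lower too, among 65 of 28157 genes, and the edgeR fit reported here did not. The receptor copies notch3.L and notch3.S and the ligand jag1.L were higher at st16 and st25, notch3.S at st32 too, and jag1.S at st25; over st16 to st32 together notch2.L was higher as well. Of 14 copies, 1 was called against uninjected caps at st10.5 (0.0537% of all genes), 6 at st16 (9.93% of all genes), 5 at st25 (12.3% of all genes) and 1 at st32 (5.83% of all genes). At st16 there were 3 higher (2.71% of all genes) and 3 lower (7.22%), and at st25 there were 4 higher (5.21%) and 1 lower (7.1%). The median log2 fold change of the 14 copies at st16 was 0.62, against 0.01 over all genes tested.

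**Figure D2:**
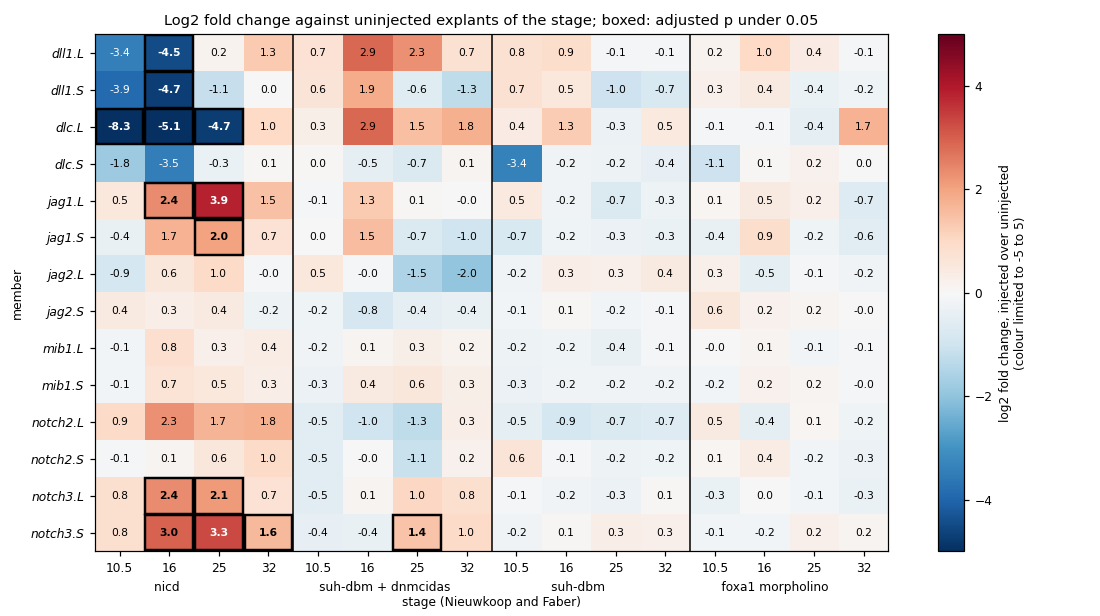
Log2 fold change (colour and number) of each copy in the 4 injected treatments over uninjected explants of the same stage; boxes mark an edgeR adjusted p under 0.05. Boxes sit almost wholly in the nicd columns, blue for the Delta ligands and red for jag1 and notch3; none lies in the suh-dbm or foxa1 morpholino columns, and dlc.S rests on at most 53 counts.

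The Delta ligand dlc.L was close to absent in nicd caps. At st10.5 it had 0.0712 and 0.0718 CPM with nicd, against 13.1 and 31.9 CPM in controls. These were 4 reads against 2052, a ratio of 0.00341 with a 95% exact interval of counting error from 0.000929 to 0.00875. The fitted log2 fold change was -8.28 ± 1.37 (SE; edgeR adjusted p 0.00900). It was no longer called without the nicd library of experiment 1 (adjusted p 0.182), the nicd library of experiment 2 (0.174) or the control library of experiment 2 (0.0823), nor in the fit of the st10.5 libraries alone (0.320).

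At st16 dlc.L had 0 and 1.76 CPM with nicd, against 36.5 and 18.4 CPM in controls. The log2 fold change was -5.14 ± 1.05 (SE; edgeR adjusted p 0.00161), and it was -13.31 without the nicd library of experiment 2, which leaves a nicd library with 0 counts. At st25 it had 0 and 0.0751 CPM with nicd, against 1.10 and 1.19 CPM in controls, or 3 reads against 123 (ratio 0.0359, 95% exact interval of counting error 0.00729 to 0.107). This was called (-4.73 ± 1.46, SE; edgeR adjusted p 0.0331) in the fit of all libraries but in none of the 4 fits that left out 1 of its libraries: adjusted p was 0.278 and 0.0824 without a nicd library, and 0.0818 and 0.0914 without a control library. Without the nicd library of experiment 2 its log2 fold change was -8.60. At st32 both groups were near 0, at 0.0433 and 0.189 CPM with nicd and 0.019 and 0.116 CPM in controls.

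Both copies of dll1 were lower with nicd at st16 and were not at st32. At st10.5 dll1.S had 1.07 and 2.51 CPM with nicd, against 11.1 and 40.1 CPM in controls, and was not called (log2 fold change -3.88 ± 0.89, SE; edgeR adjusted p 0.155). The block brought it under the threshold (-3.81 ± 0.73, SE; edgeR adjusted p 0.0220), and DESeq2 called it too (-3.80 ± 0.79, SE, adjusted p 0.00118). At st16 dll1.S had 0.367 and 4.97 CPM with nicd, against 78.2 and 48.4 CPM in controls (-4.70 ± 0.91, SE; edgeR adjusted p 0.000856), a call kept in each of the 4 fits that left out 1 library. At st25 it had 2.50 and 19.4 CPM with nicd, against 19.0 and 29.2 CPM in controls, and at st32 it had 39.2 and 51.7 CPM with nicd, against 30.3 and 59.0 CPM in controls. The libraries of the 2 groups overlapped at st25 and st32, and neither was called.

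For dll1.L, nicd caps had 1.49 and 2.37 CPM at st10.5, against 7.34 and 32.2 CPM in controls, and 0.0458 and 1.22 CPM at st16, against 13.9 and 11.1 CPM in controls. The st10.5 effect was not called in the reported edgeR fit and was called by DESeq2 (log2 fold change -3.32 ± 0.83, SE, adjusted p 0.0294). The st16 log2 fold change was -4.46 ± 0.96 (SE; edgeR adjusted p 0.00264); without the nicd library of experiment 1 it was -3.48 (adjusted p 0.0623), and without that of experiment 2 -8.02 (adjusted p 0.00111). At st25 dll1.L had 0.648 and 2.98 CPM with nicd, against 1.30 and 1.94 CPM in controls. At st32 it had 6.33 and 2.08 CPM with nicd, against 1.14 and 2.28 CPM in controls, so that the order of the means had turned, with overlapping libraries and no call (1.33 ± 0.85, SE; edgeR adjusted p 0.499).

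Whether the nicd effect differed between the 4 stages was tested directly, in 1 test over its 4 stage effects. It did for dll1.L, notch3.S and dll1.S (edgeR adjusted p 0.00938, 0.0133 and 0.0285), 3 of 14 copies, where 4.24% of all genes were called. Under the replicate block 7 member tests of stage dependence were called over the 4 injected treatments, against 3 without it. Of those added, notch3.L (edgeR adjusted p 0.0467), jag1.L (0.0324) and jag1.S (0.0225) concerned nicd, and jag1.S (0.0331) suh-dbm with dnmcidas. Over all 31648 genes the block called 1891 for nicd, against 1342 without it. For suh-dbm with dnmcidas it called 911, against 705 without it (2.23% of all genes).

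The receptor copies notch3.L and notch3.S were higher with nicd. At st16 notch3.S had 103 and 81.1 CPM with nicd, against 9.05 and 14.3 CPM in controls (log2 fold change 2.96 ± 0.41, SE; edgeR adjusted p 2.5e-05). At st25 it had 80.7 and 34.5 CPM with nicd, against 5.36 and 6.53 CPM in controls (3.30 ± 0.42, SE; edgeR adjusted p 4.19e-06). At both stages every nicd library lay above every control library, and the call was kept in each fit that left out 1 library. At st10.5 the nicd libraries had 36.6 and 34.6 CPM, against 23.6 and 15.4 CPM in controls, with no call (0.81 ± 0.38, SE; edgeR adjusted p 1). At st32 notch3.S had 19.3 and 9.08 CPM with nicd, against 4.48 and 4.59 CPM in controls (1.63 ± 0.40, SE; edgeR adjusted p 0.00969). That call rested on the higher nicd library: without it the log2 fold change was 0.98 (adjusted p 0.365), and without either control library the adjusted p was 0.0913 or 0.104.

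The L copy moved the same way. At st16 notch3.L had 284 and 178 CPM with nicd, against 47.3 and 40.1 CPM in controls (log2 fold change 2.36 ± 0.37, SE; edgeR adjusted p 8.5e-05). At st25 it had 98.0 and 75.2 CPM with nicd, against 15.5 and 24.3 CPM in controls (2.14 ± 0.36, SE; edgeR adjusted p 0.000175). Both calls were kept in each fit that left out 1 library. At st10.5 notch3.L had 178 and 178 CPM with nicd, against 112 and 83.7 CPM in controls, without a call (0.81 ± 0.35, SE; edgeR adjusted p 1). The injected nicd reads as notch1.S, at 6573 and 2104 CPM at st16 and 424 and 792 CPM at st25 in nicd libraries, against 63.0 and 71.3 CPM and 36.4 and 49.5 CPM in controls. Whether reads of the injected sequence were counted to other receptors was not tested.

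Of the notch2 copies, the L copy was called in the mean over stages and the S copy was not; the difference between them was not tested. At st16 notch2.L had 20.9 and 46.7 CPM with nicd, against 4.51 and 8.98 CPM in controls, at st25 it had 114 and 78.2 CPM with nicd, against 36.3 and 23.3 CPM in controls, and at st32 it had 105 and 69.1 CPM with nicd, against 34.1 and 14.9 CPM in controls. The nicd libraries lay above the control libraries at each of these stages, and no single stage was called (log2 fold changes 2.28 ± 0.78, 1.69 ± 0.76 and 1.79 ± 0.76, SE; edgeR adjusted p 0.0651, 0.162 and 0.216). Under the replicate block the st16 effect was called (2.27 ± 0.75, SE; edgeR adjusted p 0.0450), as it was by DESeq2 (adjusted p 0.0228). The edgeR fits of 1 stage called st16 and st25 (adjusted p 0.0277 and 0.0267). The authors' deposited DESeq2 results called st16, st25 and st32 (adjusted p 0.000268, 0.000216 and 0.00144). The mean effect over st16 to st32 was called too (1.92 ± 0.44, SE; edgeR adjusted p 0.00194) and was kept in each of 12 fits that left out 1 library. In the same libraries notch2.S had 4.47 and 9.76, 59.7 and 61.5, and 102 and 89.7 CPM with nicd, against 4.30 and 8.30, 42.0 and 40.9, and 56.2 and 41.3 CPM in controls, a mean effect of 0.55 ± 0.24 (SE; edgeR adjusted p 0.102).

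The Jagged ligand jag1 was higher with nicd. At st25 jag1.L had 116 and 34.2 CPM with nicd, against 5.50 and 5.02 CPM in controls, a log2 fold change of 3.86 ± 0.62 (SE; edgeR adjusted p 7.84e-05) that was kept in each fit that left out 1 library. At st16 it had 3.97 and 15.8 CPM with nicd, against 1.58 and 2.04 CPM in controls (2.37 ± 0.58, SE; edgeR adjusted p 0.00830). The st16 call was lost without the higher nicd library, that of experiment 2 (log2 fold change 1.15, adjusted p 0.262), and without the control of experiment 1 (0.0905) or 2 (0.0655). At st32 jag1.L had 19.7 and 7.94 CPM with nicd, against 6.87 and 2.74 CPM in controls, without a call (1.48 ± 0.56, SE; edgeR adjusted p 0.151).

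The S copy of jag1 had 13.4 and 8.26 CPM with nicd at st25, against 2.69 and 2.81 CPM in controls (log2 fold change 2.00 ± 0.59, SE; edgeR adjusted p 0.0252). The call was lost without the nicd library of experiment 1 (adjusted p 0.251) or either control library (0.140 and 0.157). At st16 it had 1.21 and 2.32 CPM with nicd, against 0.483 and 0.532 CPM in controls, with no call (1.73 ± 0.61, SE; edgeR adjusted p 0.0742). It was called with the replicate block (1.83 ± 0.41, SE; edgeR adjusted p 0.00286) and by DESeq2 (adjusted p 0.0272). At st10.5 neither jag1 copy was called. There jag1.L had 28.3 and 35.5 CPM with nicd, against 19.7 and 22.3 CPM in controls, without overlap, and jag1.S had 6.51 and 5.13 CPM with nicd, against 9.11 and 5.33 CPM in controls, with overlap.

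Averaged over st16, st25 and st32, nicd had 9 of 14 copies called against controls, 7 higher and 2 lower, where 25.8% of all genes were called, 11.8% higher and 14% lower. The higher ones were notch3.S (log2 fold change 2.63 ± 0.23, SE), jag1.L (2.57 ± 0.34, SE), notch2.L, notch3.L (1.73 ± 0.21, SE), jag1.S (1.48 ± 0.34, SE), mib1.S (0.50 ± 0.17, SE) and mib1.L (0.48 ± 0.17, SE). The lower ones were dll1.S (-1.94 ± 0.46, SE; edgeR adjusted p 0.00267) and dlc.L (-2.96 ± 1.07, SE; edgeR adjusted p 0.0427). The small effects on mib1 were the least stable: without the st16 nicd library of experiment 1, the log2 fold change of mib1.L was 0.31 and that of mib1.S 0.30 (adjusted p 0.214 and 0.230). The mib1.L call was kept in 4 and the mib1.S call in 5 of 12 fits that left out 1 library. The dlc.L call was kept in 5 of 12, with an adjusted p of 0.378 without the st32 control of experiment 2 and a log2 fold change of -5.68 without the st16 nicd library of experiment 2. The 2 copies of jag2 were called at no stage and not in the mean.

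**Figure D3:**
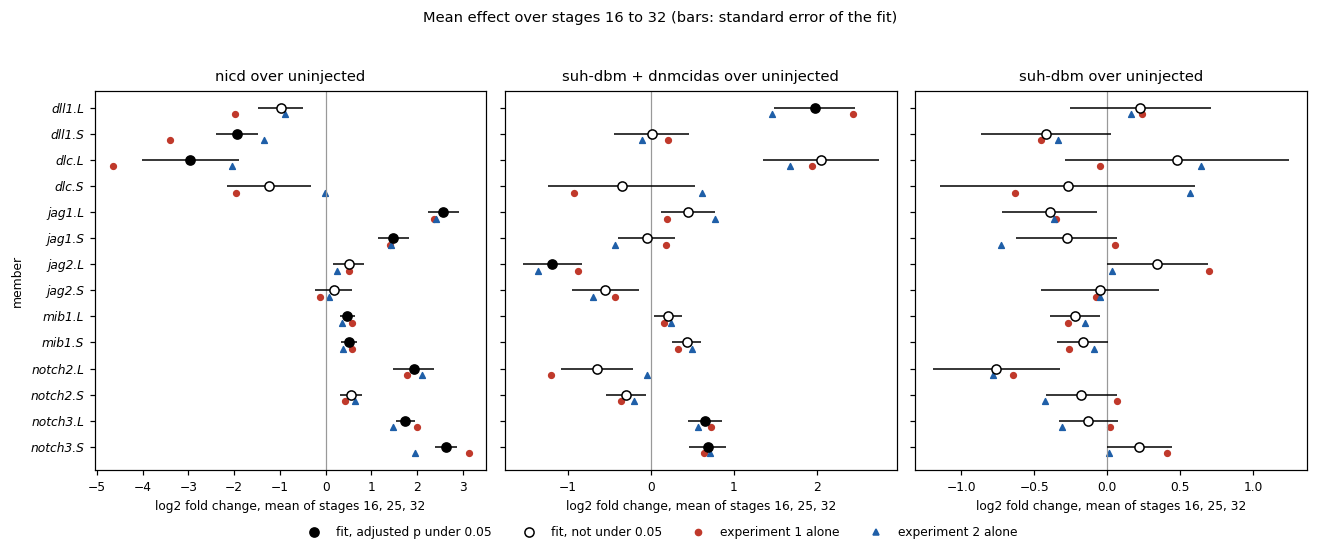
Mean log2 fold change over st16, st25 and st32 against uninjected explants for nicd (left), suh-dbm with dnmcidas (middle) and suh-dbm (right), with the standard error of the fit; filled points have an edgeR adjusted p under 0.05, and small points give each experiment's own log2 ratio. Under nicd both experiments put notch3, notch2.L and jag1 to the right of 0 and dll1 and dlc.L to the left; the horizontal scales of the panels differ.

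Markers of other tissues moved with nicd as well. The summed level of a mesoderm and muscle list of 13 copies (12 with a count in any library) was 2.55 and 137 CPM in nicd libraries at st16, against 1.35 and 4.97 CPM in controls. It was 63.4 and 203 CPM with nicd at st25, against 9.91 and 15.7 CPM in controls, and 38.0 and 165 CPM with nicd at st32, against 13.4 and 19.6 CPM in controls. Copies at 0 numbered 6, 5 and 8 of 13 with nicd at st16, st25 and st32, and 6, 5 and 8 in controls. Both myf5 copies, mespa.S and msgn1.S were at 0 in all of these libraries, so the sums rest on the remaining copies. A neural list of 14 copies summed to 297 to 355 CPM with nicd at st16, against 127 to 161 CPM in controls. It summed to 369 to 460 CPM with nicd at st25, against 67.1 to 112 CPM in controls, and to 323 to 504 CPM with nicd at st32, against 38.4 to 102 CPM in controls. Of this list neurog1.L was at 0 in all of these libraries. The copy neurog2.S was at 0 with nicd at all 3 stages and in controls at st32 only. Going the other way, nrp1.L at st16 and elavl3.L at st32 were at 0 in controls and not with nicd. A multiciliated cell list of 19 copies summed to 76.4 to 79.3 CPM with nicd at st16, against 935 to 948 CPM in controls, and an ionocyte list of 13 copies to 56.9 to 102 CPM against 757 to 1279 CPM in controls. A basal cell list of 6 copies summed to 529 to 591 CPM with nicd at st16, against 248 to 305 CPM in controls, to 644 to 786 CPM with nicd at st25, against 465 to 550 CPM in controls, and to 688 to 733 CPM with nicd at st32, against 328 to 400 CPM in controls. A goblet cell list of 6 copies summed to 2428 to 4664 CPM with nicd at st16, against 9308 to 9980 CPM in controls, and was below controls at each other stage too. The epidermal list summed to 5278 to 6268 CPM with nicd at st16, against 4178 to 4185 CPM in controls. At st16 otog.S was at 0 in both groups and lamb3.L in nicd libraries. The part of these cell type markers in the ligand and receptor values was not tested.

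The study also allowed nicd caps to be set against caps given suh-dbm, the mRNA used to block Notch signalling. Compared with suh-dbm caps of the same stage, nicd caps had 1 of 14 copies called at st10.5 (0.0569% of all genes), 9 at st16 (12.7% of all genes), 6 at st25 (18.7% of all genes) and 3 at st32 (10.9% of all genes). These comparisons use the nicd libraries of the comparisons with controls, so their values are not independent of those. The receptor notch2.L, not called against controls at any stage in the reported fit, was called against suh-dbm at 3 of them. Other fits and the authors' deposited results did call it against controls, as given above. It had 20.9 and 46.7 CPM with nicd at st16, against 3.45 and 4.01 CPM with suh-dbm (log2 fold change 3.17 ± 0.82, SE; edgeR adjusted p 0.00991). At st25 and st32 its log2 fold changes were 2.42 ± 0.78 and 2.46 ± 0.78 (SE; edgeR adjusted p 0.0301 and 0.0421). The 3 calls were lost without either suh-dbm library of the stage, with adjusted p of 0.103 and 0.0762 at st16, 0.0821 and 0.217 at st25, and 0.113 and 0.281 at st32. At st25 the nicd library of experiment 1 (0.168), at st16 that of experiment 2 (0.0590) and at st32 each nicd library (0.209 and 0.0630) also decided the call.

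At st16 the Delta ligands dlc.L, dll1.L and dll1.S had the largest log2 fold changes in that comparison. There dll1.S had 0.367 and 4.97 CPM with nicd, against 79.9 and 115 CPM with suh-dbm (log2 fold change -5.24 ± 0.93, SE; edgeR adjusted p 0.000332). For dll1.L it was 0.0458 and 1.22 CPM with nicd, against 16.1 and 32.9 CPM with suh-dbm (-5.33 ± 1.00, SE; edgeR adjusted p 0.000572), and for dlc.L 0 and 1.76 CPM with nicd, against 77.3 and 60.6 CPM with suh-dbm (-6.39 ± 1.11, SE; edgeR adjusted p 0.000265). At st10.5 both dll1 copies were called with the replicate block but not in the reported fit (dll1.L -4.26 ± 0.87 and dll1.S -4.76 ± 0.76, SE; edgeR adjusted p 0.0368 and 0.00422), as was the mean effect on dll1.L (-1.25 ± 0.47, SE; edgeR adjusted p 0.0395). DESeq2 called them too (adjusted p 0.000411 and 5.12e-06 at st10.5 and 0.0303 for the mean). The st16 calls of all 3 copies were kept in each fit that left out 1 library, and without the nicd library of experiment 2 their log2 fold changes were -7.97, -8.89 and -14.56. The mean effect over st16 to st32 was called for 10 of 14 copies (33.4% of all genes), 8 higher (16.9% of all genes) and 2 lower (16.5%), among them notch2.S (0.72 ± 0.24, SE; edgeR adjusted p 0.0234), which was not called against controls. That call was kept in 7 of 12 fits that left out 1 library (adjusted p 0.113 without the st16 nicd library of experiment 2).

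With suh-dbm alone, which was used to block Notch signalling, no change in these genes passed the test. The injected transcript, read as rbpj.S, was down to 35.7 and 366 CPM at st25 and 6.66 and 128 CPM at st32 in suh-dbm libraries. Its part in the results of these stages was not tested. Of 14 copies, 0 were called at st10.5 (0.00316% of all genes), st16 (0.00316%), st25 (0%), st32 (0%) or in the mean over st16 to st32 (0.0822%). At an unadjusted p under 0.05 the edgeR test likewise counted 0 copies at every stage, against 625, 671, 1124 and 810 of all 31648 genes from st10.5 to st32. DESeq2 called 0 copies. At st16 the libraries of the groups did not overlap for 4 of 14 copies, as for 24.1% of all genes. There dll1.L had 16.1 and 32.9 CPM with suh-dbm, against 13.9 and 11.1 CPM in controls. For dlc.L it was 77.3 and 60.6 CPM with suh-dbm, against 36.5 and 18.4 CPM in controls, and for dll1.S 79.9 and 115 CPM with suh-dbm, against 78.2 and 48.4 CPM in controls. The suh-dbm libraries lay above the controls in these copies, and below them in notch2.L, which had 3.45 and 4.01 CPM with suh-dbm, against 4.51 and 8.98 CPM in controls. For notch3.L the libraries had 50.7 and 29.4 CPM with suh-dbm, against 47.3 and 40.1 CPM in controls, and overlapped. At the later stages the Delta copies did not lie above controls. With suh-dbm dll1.S had 8.02 to 15.2 CPM at st25, below the 19.0 to 29.2 CPM of controls. At st32 it had 23.1 to 28.3 CPM, below the 30.3 to 59.0 CPM of controls. The libraries of dll1.L and dlc.L overlapped with controls at both stages.

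With the foxa1 morpholino no change passed the test either. It had 0 of 14 copies called at st10.5 (0.0158% of all genes), st16 (0.0442%), st25 (0.0284%), st32 (0.0126%) and in the mean over st16 to st32 (0.626%), and 0 by DESeq2. The morpholino had 0 copies at an unadjusted edgeR p under 0.05 at any stage, against 753, 1162, 907 and 1084 of all 31648 genes from st10.5 to st32. Its mean log2 fold changes ran from -0.23 to 0.45. At st16 its experiments lay apart in dll1, with 8.85 and 45.5 CPM for dll1.L and 48.1 and 137 CPM for dll1.S with the morpholino, against 13.9 and 11.1 CPM and 78.2 and 48.4 CPM in controls.

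With dnmcidas added to suh-dbm, the levels of the Delta ligands dll1.L, dll1.S and dlc.L at st16 were the highest of any treatment and stage. At st16 dll1.L had 121 and 78.7 CPM with suh-dbm and dnmcidas, against 13.9 and 11.1 CPM in controls, and dll1.S had 288 and 220 CPM, against 78.2 and 48.4 CPM in controls. For dlc.L the values were 310 and 123 CPM with both mRNAs, against 36.5 and 18.4 CPM in controls. The groups did not overlap in 7 of 14 copies, these among them, as in 44.7% of all genes. None of the 3 was called at st16 without the block (log2 fold changes 2.87 ± 0.85, 1.87 ± 0.79 and 2.86 ± 0.92, SE; edgeR adjusted p 0.0587, 0.284 and 0.0909). With the replicate block dll1.L and dlc.L were called (2.89 ± 0.79 and 2.88 ± 0.84, SE; edgeR adjusted p 0.0283 and 0.0446), and jag1.S also (1.45 ± 0.41, SE; edgeR adjusted p 0.0325).

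Without the block, suh-dbm with dnmcidas had 0 of 14 copies called against controls at st10.5 (0.0126% of all genes), 0 at st16 (4.12%), 1 at st25 (5.59%) and 0 at st32 (2.74%). At an unadjusted edgeR p under 0.05 there were 0 copies at st10.5, 5 at st16 and 3 at st32, against 907, 4003 and 3141 of all 31648 genes. DESeq2 called 0, 1 (dll1.L) and 1 (jag2.L) at these stages, where it called 13 of 25508, 1861 of 29040 and 1238 of 27274 genes. The st25 call was notch3.S, with 18.5 and 19.9 CPM, against 5.36 and 6.53 CPM in controls (log2 fold change 1.44 ± 0.39, SE; edgeR adjusted p 0.0259). It was kept in none of the 4 fits that left out 1 library, with adjusted p of 0.101 and 0.0984 without a library of both mRNAs and 0.204 and 0.123 without a control library.

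Averaged over st16 to st32, 4 copies were called against controls (11.9% of all genes). The ligand dll1.L was higher by a log2 fold change of 1.97 ± 0.49 (SE; edgeR adjusted p 0.00762), kept in each of 12 fits that left out 1 library. At st25 it had 11.5 and 7.32 CPM with both mRNAs, against 1.30 and 1.94 CPM in controls. The S copy, which had more reads, was not higher after st16: dll1.S averaged 18.9 ± 0.60 CPM with both mRNAs at st25, against 24.1 ± 7.19 CPM in controls, and 20.6 ± 0.78 CPM with both mRNAs at st32, against 44.6 ± 20.3 CPM in controls (SD, n = 2 each). Its mean effect was 0.01 ± 0.45 (SE; edgeR adjusted p 1), and that of the summed dll1 copies 0.32 ± 0.44 (SE; edgeR adjusted p 0.739). The receptors notch3.L and notch3.S were higher by 0.65 ± 0.20 and 0.69 ± 0.22 (SE; edgeR adjusted p 0.0346 and 0.0449), kept in 5 and 2 of 12 such fits, with an adjusted p of up to 0.133 and 0.156. Both lowest values came without a st16 library of both mRNAs, of experiment 1 for notch3.L (log2 fold change 0.53) and of experiment 2 for notch3.S (0.54). Fitting the block called dlc.L as well (2.02 ± 0.68, SE; edgeR adjusted p 0.0451).

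Of the jag2 copies, jag2.S had more reads and was not called. At st32 jag2.S averaged 8.14 ± 2.63 CPM with both mRNAs, against 9.52 ± 3.63 CPM in controls (SD, n = 2 each). The summed jag2 copies had a mean effect of -0.65 ± 0.38 (SE; edgeR adjusted p 0.302). The L copy, jag2.L, was lower. At st32 it had 0.930 and 0.902 CPM with both mRNAs, against 2.49 and 4.09 CPM in controls, and at st25 it had 0.660 and 0.586 CPM with both mRNAs, against 1.02 and 2.05 CPM in controls. Its mean log2 fold change over st16 to st32 was -1.19 ± 0.36 (SE; edgeR adjusted p 0.0280), kept in 4 of 12 fits that left out 1 library (adjusted p up to 0.105, without the st16 library of both mRNAs of experiment 1). In these caps the multiciliated cell list summed to 79.8 to 103 CPM at st16, 62.7 to 91.2 CPM at st25 and 70.7 to 93.9 CPM at st32, against 935 to 948, 481 to 486 and 345 to 408 CPM in controls. The ionocyte list summed to 2894 to 3793 CPM with both mRNAs at st16, against 757 to 1279 CPM in controls. The basal cell list summed to 119 to 168 CPM with both mRNAs at st16, against 248 to 305 CPM in controls, and the goblet cell list to 7038 to 7286 CPM with both mRNAs, against 9308 to 9980 CPM in controls. At st25 and st32 the basal cell list summed to 381 to 569 and 389 to 658 CPM with both mRNAs. Controls had 465 to 550 and 328 to 400 CPM, with overlap at both stages. The ionocyte list stayed above controls and the goblet cell list below them at st25 and st32. The part of these lists in the jag2.L and dll1.L values was not tested.

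Set against suh-dbm alone, caps with both mRNAs had 0 of 14 copies called at st10.5 (0.00632% of all genes) and 0 at st16 (3.24%). They had 1 called at st25 (6%) and 1 at st32 (2.92%). Caps with both mRNAs were given more mRNA in total, so an effect of dnmcidas cannot be told apart from that of the larger load. At an unadjusted edgeR p under 0.05 there were 1 copy at st10.5 and 3 at st16, against 1116 and 3588 of all 31648 genes. DESeq2 called 0 copies at both, where it called 17 of 19328 and 1396 of 29040 genes. At st25 notch3.L had 46.3 and 50.9 CPM with both mRNAs, against 12.7 and 19.9 CPM with suh-dbm (log2 fold change 1.32 ± 0.36, SE; edgeR adjusted p 0.0242). At st32 jag2.L had 0.930 and 0.902 CPM with both mRNAs, against 3.80 and 4.84 CPM with suh-dbm (-2.42 ± 0.62, SE; edgeR adjusted p 0.0244). Neither call was kept in any of its 4 fits that left out 1 library: adjusted p were 0.0841 and 0.103 without a library of both mRNAs and 0.264 and 0.0514 without a suh-dbm library for notch3.L, and 0.164 and 0.277, and 0.0574 and 0.132, for jag2.L. At st16 1 further copy, jag1.S, was called with the replicate block (1.74 ± 0.43, SE; edgeR adjusted p 0.0168), at 2.07 and 1.10 CPM with both mRNAs, against 0.643 and 0.275 CPM with suh-dbm.

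The mean effect of adding dnmcidas over st16 to st32 was called for 4 copies (11.7% of all genes). With L and S copies summed, jag2 (-0.68 ± 0.38) and dll1 (0.67 ± 0.45) were not called (SE; edgeR adjusted p 0.279 and 0.384). Summed notch3 (0.73 ± 0.19) and mib1 (0.51 ± 0.17) were called (SE; edgeR adjusted p 0.00921 and 0.0454). The ligand jag2.L fell (-1.53 ± 0.36, SE; edgeR adjusted p 0.00485) and kept its call in each of 12 fits that left out 1 library. Higher were dll1.L (1.74 ± 0.49, SE; edgeR adjusted p 0.0184), notch3.L (0.78 ± 0.20, SE; edgeR adjusted p 0.0107) and mib1.S (0.60 ± 0.18, SE; edgeR adjusted p 0.0256), kept in 7, 10 and 5 of 12 such fits. The highest adjusted p were 0.0664 for dll1.L (without the st16 suh-dbm library of experiment 1), 0.0547 for notch3.L (without the st16 library of both mRNAs of experiment 1) and 0.132 for mib1.S (without the st32 library of both mRNAs of experiment 2).

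**Figure D4:**
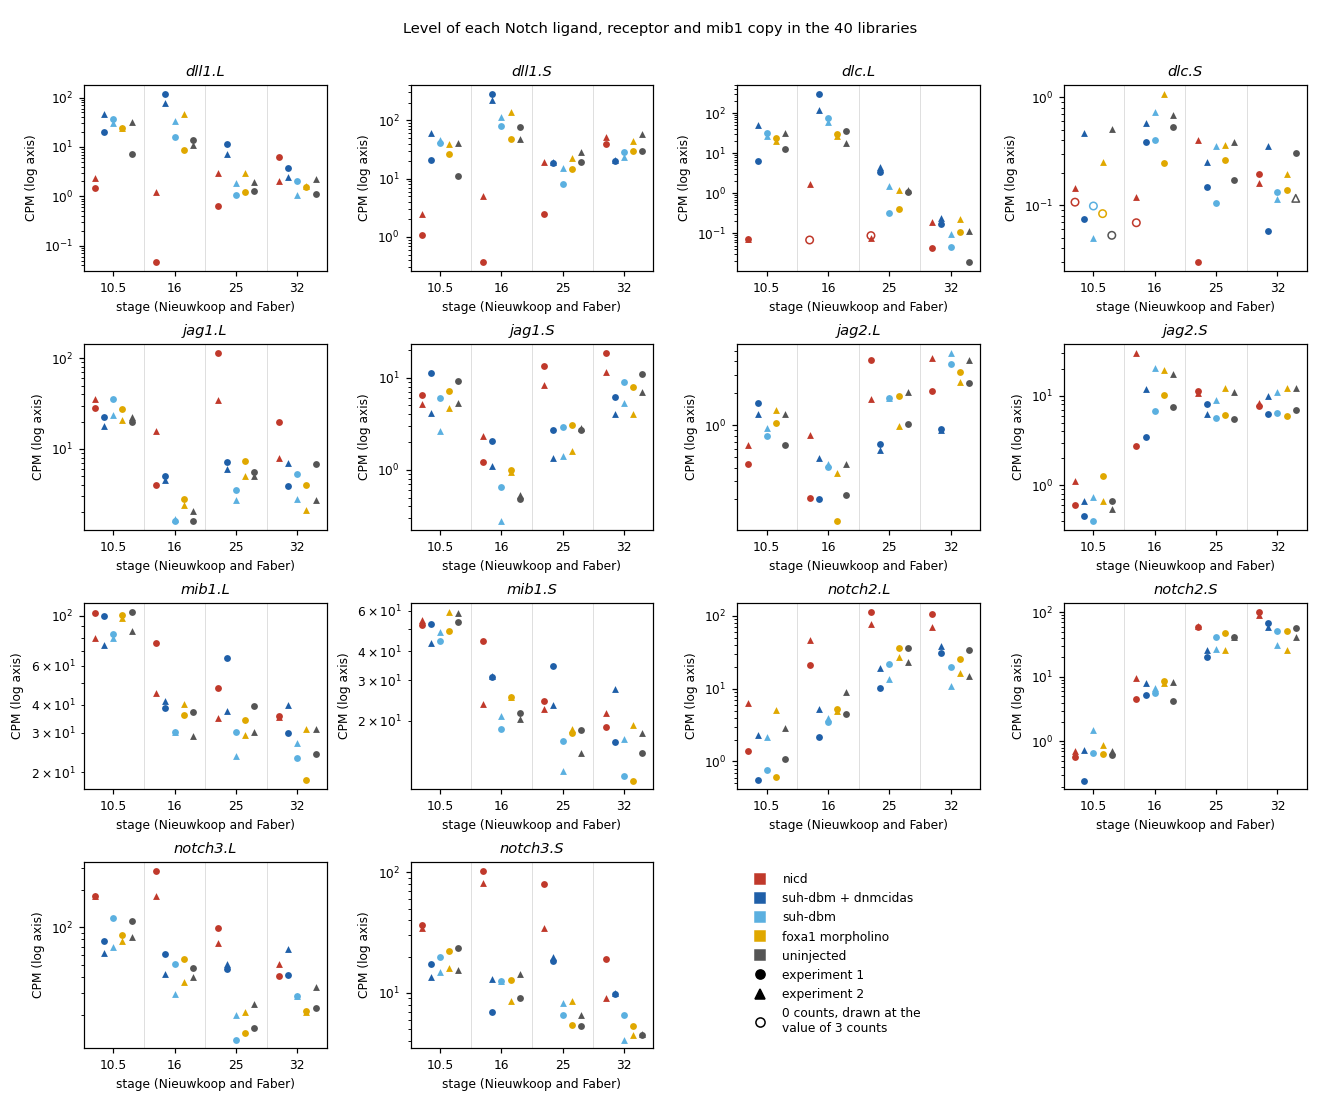
CPM (log axis) of each copy in all 40 libraries by stage; colours are treatments, circles experiment 1, triangles experiment 2, and open points counts of 0 drawn at the value of 3 counts. The nicd points lie lowest for dll1 and dlc.L at st10.5 and st16 and highest for notch3 and notch2.L at st16 and st25, and suh-dbm with dnmcidas lies highest for dll1 and dlc.L at st16.

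The order of the treatments at st16 can be read from the means of dll1.L: suh-dbm with dnmcidas, foxa1 morpholino, suh-dbm, controls, nicd. Of the neighbours in that order that were tested, nicd and controls differed, and suh-dbm and controls did not pass the test. The foxa1 morpholino libraries, at 8.85 and 45.5 CPM, spanned those of suh-dbm and of controls, so its place rests on 1 library. For notch3.S at st25 the order was nicd, suh-dbm with dnmcidas, suh-dbm, foxa1 morpholino, controls. Each of the last 3 overlapped with its neighbour.

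Other genes of ligand handling and receptor processing came from a list of 59 further copies, of which 57 were tested; the list was written with earlier results of these data known. With nicd, 0 of 57 were called at st10.5 (0 also at an unadjusted edgeR p under 0.05 and by DESeq2), 8 at st16 (1 higher, 7 lower), 12 at st25 (3 higher, 9 lower) and 7 at st32 (1 higher, 6 lower). Of all 31648 genes 9.93% (859 higher, 2285 lower), 12.3% (1648 higher, 2246 lower) and 5.83% (562 higher, 1282 lower) were called at the last 3 stages, so calls over all genes were mostly lower too. At st10.5 0.0537% of all genes were called, and 790 had an unadjusted edgeR p under 0.05. The median log2 fold change of the 57 was 0.05 at st16 and -0.05 at st25, against 0.01 and 0 over all genes tested. The 6 with the smallest p at st16 were all lower with nicd.

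Among them, neurl1.L, a Neuralized E3 ligase that like mib1 acts on ligands, had 0.0458 and 0.655 CPM with nicd, against 42.9 and 24.8 CPM in controls (log2 fold change -6.77 ± 1.02, SE; edgeR adjusted p 6.47e-05). The copies of lfng, a Fringe enzyme that adds sugar to Notch and shifts its choice of ligand, were lower: lfng.S had 0.963 and 2.35 CPM with nicd, against 20.9 and 21.5 CPM in controls (-3.76 ± 0.58, SE; edgeR adjusted p 7.85e-05). For lfng.L the log2 fold change was -2.95 ± 0.47 (SE; edgeR adjusted p 0.000105). The Delta ligand dll4.L counted 0 in both nicd libraries, against 0.272 and 0.446 CPM in controls (edgeR adjusted p 0.000883). The other 2 were itch.L (-0.97 ± 0.24, SE; edgeR adjusted p 0.00843), an E3 ligase, and numbl.L (-2.73 ± 0.70, SE; edgeR adjusted p 0.0116), a relative of the Notch antagonist Numb.

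At st25 the 6 of smallest p were again all lower with nicd. They included mib2, a relative of mib1: mib2.S had 0.118 and 0.401 CPM with nicd, against 3.24 and 5.25 CPM in controls (log2 fold change -3.99 ± 0.56, SE; edgeR adjusted p 1.46e-05), and mib2.L 5.54 and 7.61 CPM, against 17.9 and 16.7 CPM in controls (-1.39 ± 0.25, SE; edgeR adjusted p 0.000341). The ligase neurl1.L (-5.38 ± 0.94, SE; edgeR adjusted p 0.000249) was again lower, as were neurl3.L, itch.S and dner.S; dner.S counted 0 with nicd, against 1.45 and 2.19 CPM in controls. At st32 maml1.L, a coactivator that binds the intracellular domain, was higher, with 18.4 and 21.5 CPM with nicd, against 8.68 and 10.8 CPM in controls (1.03 ± 0.26, SE; edgeR adjusted p 0.0129).

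With suh-dbm and dnmcidas 4 of 57 were called at st16 (1 higher, 3 lower) and 4 at st25 (2 higher, 2 lower). Of all genes 4.12% (126 higher, 1177 lower) and 5.59% (423 higher, 1347 lower) were called there. At st10.5 and st32 0 of 57 were called (0.0126% and 2.74% of all genes), and DESeq2 called 0 and 1. Over all genes DESeq2 called 13 of 25508 and 1238 of 27274 there. At these stages 2 and 6 of 57 had an unadjusted edgeR p under 0.05, against 907 and 3141 of all 31648 genes. The Fringe copies were higher: lfng.L had 22.9 and 18.6 CPM at st16, against 5.61 and 4.75 CPM in controls (log2 fold change 1.88 ± 0.43, SE; edgeR adjusted p 0.00696), and lfng.S had 41.7 and 12.38 CPM at st25, against 3.92 and 2.19 CPM in controls (2.87 ± 0.55, SE; edgeR adjusted p 0.00112). The ligase neurl1b.L was lower at st16 and st25 (-2.44 ± 0.45 and -2.52 ± 0.45, SE; edgeR adjusted p 0.000614 and 0.000498). Suh-dbm alone had 0 of 57 called at any stage (1, 3, 4 and 2 at an unadjusted edgeR p under 0.05 from st10.5 to st32, and 0 by DESeq2). Of all 31648 genes, 625, 671, 1124 and 810 had an unadjusted edgeR p under 0.05 at these stages. The foxa1 morpholino had 1, psenen.S at st10.5, a subunit of the protease that cuts Notch (-1.75 ± 0.31, SE; edgeR adjusted p 0.0488). Of all genes 0.0158%, 0.0442%, 0.0284% and 0.0126% were called with the morpholino from st10.5 to st32.

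A list of 24 copies of Notch target genes (hes, hey and nrarp) gave the level of pathway output in the same libraries. Its sum was 2422 to 2430, 2272 to 2762, 602 to 2643 and 121 to 251 CPM at st10.5, st16, st25 and st32 with nicd, against 420 to 514, 296 to 306, 102 to 108 and 61.0 to 68.2 CPM in controls. With suh-dbm and dnmcidas it was 441 to 514, 155 to 175, 167 to 184 and 93.1 to 102 CPM at the 4 stages. It thus overlapped with controls at st10.5, lay below them at st16 and lay above them at st25 and st32. At st25 and st32 0 of the 24 were called (5.59% and 2.74% of all genes), and DESeq2 called 2 and 1. Over all genes DESeq2 called 2854 of 29040 and 1238 of 27274 there. At each of these stages 3 of the 24 had an unadjusted edgeR p under 0.05, against 5675 and 3141 of all 31648 genes. With suh-dbm it was 442 to 725 CPM at st10.5, overlapping with controls, and 166 to 172 CPM at st16 and 47.1 to 53.2 CPM at st32, below controls. At st25 it was 98.2 to 101.5 CPM with suh-dbm, against 101.6 CPM in the lower control library. At st16 0 of the 24 were called with suh-dbm by edgeR (0.00316% of all genes) and by DESeq2. Of the 24, 16 had an unadjusted edgeR p under 0.05, against 671 of all 31648 genes.

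In the tables of comparisons deposited by the authors, which rest on the same libraries, more of these copies pass an adjusted p of 0.05. For nicd against controls the authors' deposited tables call 17 member results, against 13 here, 11 of them shared. Called here and not there were dlc.L and dll1.L at st16. The authors' results give them log2 fold changes of -1.40 and -2.64 (DESeq2 adjusted p 0.542 and 0.0819). For suh-dbm with dnmcidas against controls the authors' deposited tables call 12, against 1 here, and for the control steps 20, against 13 here. Higher in the authors' results with both mRNAs were dlc.L, dll1.L, dll1.S and jag1.L at st16 and dlc.L, dll1.L, notch3.L and notch3.S at st25. Lower were notch2.L and notch2.S at st25 (log2 fold changes -1.22 and -1.09, DESeq2 adjusted p 0.0119 and 0.000864) and dll1.S and jag2.L at st32. The authors' deposited tables call 0 for suh-dbm and for the foxa1 morpholino. The share of all genes that the authors' results call is not given here, so their member counts cannot be set against it. All 19, 12 and 20 results called by either source had the same sign in both. At st16 the authors' deposited table gives dll1.L with suh-dbm and dnmcidas a log2 fold change of 2.73 (adjusted p 4.02e-14).

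Over the 20 group means, some genes had patterns close to these copies, by Pearson's r of log2 CPM among 16805 genes. The points share stage, experiment and library depth, and the values are a description. For dlc.L the closest were grhl3.L (r 0.97) and gadd45g.L (r 0.95), and for dll1.L gadd45g.L (r 0.89) and grhl3.L (r 0.85). For notch2.L they were itga6.S (r 0.98), for notch3.S sox9.S (r 0.95) and for jag1.L mynn.L (r 0.93). Between members, dlc.L and dll1.L had r 0.91, the mib1 copies r 0.97, the notch2 copies r 0.92, the notch3 copies r 0.88 and the dll1 copies r 0.71. The copies of jag1, dlc and jag2 had a lower r, of 0.62, 0.44 and 0.12.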

How the data were processed

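Poly-A RNA of 40 animal cap samples was sequenced unstranded, per the labels' protocols. The deposited files of single libraries hold raw counts per gene; per the submitters' processing notes the tools were FastQC 0.11.5, STAR 2.6.0b-1, featureCounts 1.6.3 and DESeq2 1.22.1. The genome build, the annotation and the treatment of multiply mapped reads are not given in the sources used here, so no coordinates are given. The 19 deposited result tables hold the authors' log2 fold changes, their standard errors, a score (the test statistic) and p-values before and after adjustment; they were only described.

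CPM values are counts over the library total. Tests used edgeR 4.0.16 in R 4.3.3 (quasi-likelihood, TMM factors, filterByExpr at its count limit of 10 and total limit of 15) in 1 fit of all 40 libraries with 20 groups, no block and 20 residual degrees of freedom. Adjusted p-values are Benjamini-Hochberg values over the 31648 genes of each comparison. Members, gene lists and tests were chosen with earlier results of these data known. All 14 members were named; list genes were the called ones, at most 6 a comparison by smallest p; alike genes were those of highest r with a mean log2 CPM of at least 1. The script was tested on simulated data.

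Replicate numbers mark experiments with separate females and fertilizations per the labels, so they pair samples. The reported fit left this pairing out, and the replicate block gave it the same term at all stages. In all 40 pairs of treatments within a stage, deviations from the group means correlated (r 0.17 to 0.65, median 0.44). Over all 190 pairs of groups, of the same or different stages, r was 0.05 to 0.65 (median 0.18). Within each group the 2 libraries differed by more than counting noise (chi-square over its degrees of freedom 48.3 to 130), so no library was a copy of another. Intervals are 95% exact binomial (Clopper-Pearson) intervals; they hold counting error alone, as PCR copies were not told apart by molecular identifiers. Alternatives were the replicate block, every gene with a count, RLE size factors, summed L and S copies, fits of 1 stage, DESeq2 1.42.0, leaving out each library in turn with the dispersion trend of all libraries kept, and, added after seeing the data, the dataset number in the file headers (20 libraries each) as a term.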

Additional observations from a re-analysis of the deposited data

Results flagged for a closer look

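The nicd effect on 3 copies differed between stages by the direct test over the 4 stage effects (edgeR adjusted p 0.00938 for dll1.L, 0.0133 for notch3.S and 0.0285 for dll1.S). For dll1.L the log2 fold change of nicd over controls was -3.40, -4.46, 0.17 and 1.33 at st10.5, st16, st25 and st32, and for dll1.S it was -3.88, -4.70, -1.15 and 0.03. For notch3.S it was 0.81, 2.96, 3.30 and 1.63. The test was kept for dll1.L in each of 16 fits that left out 1 library. It was kept for notch3.S in 14 of 16 (adjusted p 0.0711 without the st10.5 control of experiment 1 and 0.0561 without the st10.5 nicd library of experiment 2), and for dll1.S in 9 of 16 (up to 0.103, without the st32 control of experiment 1). Over the same stages the injected transcript, read as notch1.S, stood at 18802 and 9964, 6573 and 2104, 424 and 792, and 94.9 and 379 CPM in nicd libraries; its part in the stage dependence was not tested.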

How the results depend on the processing

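Of 518 member results 78 were called, and no called value changed sign under any alternative. The replicate block, the header dataset number and DESeq2 kept all 78 calls, RLE size factors kept 77 and testing every gene with a count kept 74. Fits of 1 stage kept 29 and lost 6. Of 564 fits of a called result without 1 library, 149 lost the call; each such fit leaves 1 library in a group, assumed to vary like the others.

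With the replicate block, the same experiment term for all stages, 20 member calls were added. Suh-dbm with dnmcidas against controls had 4 calls (1 without the block) and stage dependence 7 (3 without it). No other family of comparisons changed by over 1.5 times. The block also added calls over all 31648 genes and lowered their number in no comparison. For suh-dbm with dnmcidas against controls they were 1615 at st16 and 2564 at st25 (1303 and 1770 without it). For the stage dependence of nicd they were 1891 (1342 without it). For suh-dbm with dnmcidas against controls, the header dataset number gave 3 calls, every gene with a count 4, fits of 1 stage 0 and DESeq2 3. Against suh-dbm alone DESeq2 gave 4 (2 in the reported fit). For stage dependence these gave 5 (header), 6 (every gene) and 7 (DESeq2). With both mRNAs against controls, DESeq2 called 13 of 25508, 1861 of 29040, 2854 of 29040 and 1238 of 27274 genes from st10.5 to st32. Against suh-dbm alone it called 17 of 19328, 1396 of 29040, 2949 of 28157 and 1334 of 28157 at these stages. For stage dependence it called 2506 of 27901 with nicd and 1589 of 27909 with suh-dbm and dnmcidas. Summing L and S copies, which leaves fewer features, gave 7 calls for nicd against controls (13 before), 9 for nicd against suh-dbm (19), 1 for adding dnmcidas (2), 8 for control steps (13) and 15 for mean effects (27).

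Leaving out 1 library gave 11 to 14 calls for nicd against controls, 15 to 19 for nicd against suh-dbm, 0 to 1 for suh-dbm with dnmcidas against controls, 1 to 2 for adding dnmcidas, 9 to 15 for control steps, 22 to 28 for mean effects, 2 to 6 for stage dependence, and 0 throughout for suh-dbm and the foxa1 morpholino. Depth limits dlc.S (at most 53 counts) and dlc.L after st16.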
